A study of Homo sapiens with 4 samples.

Results

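A total of 6985 genomic regions carried an ATAC-seq peak in both libraries of ATRA-treated HL-60 cells and in exactly 1 of the 2 libraries of control cells. They were selected on measured values, namely the presence or absence of a peak in each deposited list, out of 78063 regions obtained by merging the peaks of the 4 lists wherever they shared at least 1 bp. They formed 8.95% of all regions and 18.6% of the 37614 regions with a peak in both ATRA lists. The peak outside the ATRA libraries belonged to control replicate 1 at 3193 of them (45.7%) and to control replicate 2 at 3792 (54.3%). These regions are called single-control regions here. They are set beside the 6976 regions with a peak in both ATRA lists and in no control list (ATRA-only regions), the 23653 regions with a peak in all 4 lists (common regions) and the 4805 regions with a peak in both control lists and exactly 1 ATRA list (mirror regions).

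HL-60 is a human line of acute promyelocytic leukemia, from peripheral blood per the labels. The ATRA group was exposed to 1 µM all-trans retinoic acid over 4 days, the control group to the same volume of its ethanol vehicle, and medium and agent were renewed on day 2 in both. Each group had 2 independent replicates and no genetic modification is labelled. The results concern 1 tumour-derived line in culture. ATAC-seq marks open chromatin, because the Tn5 transposase inserts sequencing adapters where DNA is free of nucleosomes. The lists held 43494 peaks (ATRA replicate 1), 63541 (ATRA replicate 2), 42081 (control replicate 1) and 45903 (control replicate 2), and read counts are not part of them, so sequencing depth was unknown. Of 8 myeloid marker genes, 3 had a promoter peak in every list, 4 in some lists and 1 (ELANE) in none. Of 13 genes marking other cell types, 10 had a promoter peak in no list, 2 in some lists and 1 (BCL11B, a T-cell regulator) in all 4.

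ATRA binds retinoic acid receptors, which act with retinoid X receptors on pairs of short repeated half-sites, and drives HL-60 cells along the granulocyte pathway. In that lineage PU.1, C/EBP and RUNX factors open and occupy distal regulatory elements, AP-1 and IRF factors join them at inducible genes, CTCF sits at sites that organise chromatin loops, and GATA factors belong to the progenitor state. A region that is weakly open before a stimulus and more open after it is often described as primed. A region whose signal lies close to the threshold of the peak caller can also be listed in 1 replicate and missed in the other, and a list without a peak does not show that the chromatin was closed.

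For 5 of the motifs whose share differed between classes, the reference sequence of a single-control region near a gene of myeloid function is shown, so that the match can be seen in its setting. Each is 200 bp of the GRCh37 plus strand about the centre of the region's highest ranking ATRA peak, written 5′ to 3′ with the motif in capitals. The 5 sequences lie in an intron of CYBB (chrX:37656153-37656352), downstream of NCF1 in an intron of a neighbouring gene (chr7:74234852-74235051), upstream of FCGR1A between genes (chr1:149725261-149725460), downstream of VAV1 between genes (chr19:6863648-6863847) and in an intron of CD38 (chr4:15807670-15807869).
CYBB with PU.1: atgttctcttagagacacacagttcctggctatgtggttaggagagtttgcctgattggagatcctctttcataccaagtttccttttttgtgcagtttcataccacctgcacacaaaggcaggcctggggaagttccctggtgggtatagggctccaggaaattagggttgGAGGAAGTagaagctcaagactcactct
NCF1 with RUNX: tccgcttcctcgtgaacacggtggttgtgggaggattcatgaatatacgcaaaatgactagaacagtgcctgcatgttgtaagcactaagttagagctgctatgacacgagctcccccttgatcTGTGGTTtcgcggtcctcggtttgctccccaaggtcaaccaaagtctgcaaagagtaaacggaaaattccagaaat
FCGR1A with CEBP: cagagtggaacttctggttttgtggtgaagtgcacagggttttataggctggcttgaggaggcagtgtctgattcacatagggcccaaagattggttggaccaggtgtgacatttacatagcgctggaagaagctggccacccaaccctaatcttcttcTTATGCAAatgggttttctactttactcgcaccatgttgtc
VAV1 with CTCF: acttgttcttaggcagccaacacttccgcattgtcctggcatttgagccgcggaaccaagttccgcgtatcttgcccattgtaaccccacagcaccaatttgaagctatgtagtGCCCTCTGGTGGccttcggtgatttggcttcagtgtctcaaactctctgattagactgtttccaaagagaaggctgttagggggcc
CD38 with AP-1: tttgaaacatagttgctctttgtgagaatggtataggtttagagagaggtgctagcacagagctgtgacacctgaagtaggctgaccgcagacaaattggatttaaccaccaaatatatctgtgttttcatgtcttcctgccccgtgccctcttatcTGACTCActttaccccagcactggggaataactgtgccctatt

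These examples differed in how the control list ranked them. The region of CYBB, which encodes the large membrane subunit of the phagocyte NADPH oxidase, ranked at percentile 59.3 in ATRA replicate 1, 81.1 in ATRA replicate 2 and 72.0 in control replicate 2, so the control value lay between the ATRA values. At FCGR1A, the high-affinity IgG receptor, the region ranked at 84.2 and 87.4 in ATRA replicates 1 and 2 against 33.8 in control replicate 2. At CD38, an ectoenzyme and a known retinoic acid target, the values were 46.3 and 80.2 against 7.64 in control replicate 2. A percentile here is the rank of a peak's score within its own list, from 0 for the lowest to 100 for the highest. The region downstream of VAV1, a guanine nucleotide exchange factor of leukocyte signalling, lay 47301 bp from its TSS and nearest to ADGRE1. It ranked at 42.3 and 65.0 in the ATRA lists against 1.5 in control replicate 2. The region at NCF1, a cytosolic oxidase subunit with near-identical gene copies nearby, ranked at 86.3 and 79.8 against 47.4 in control replicate 1.

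**Figure D1:**
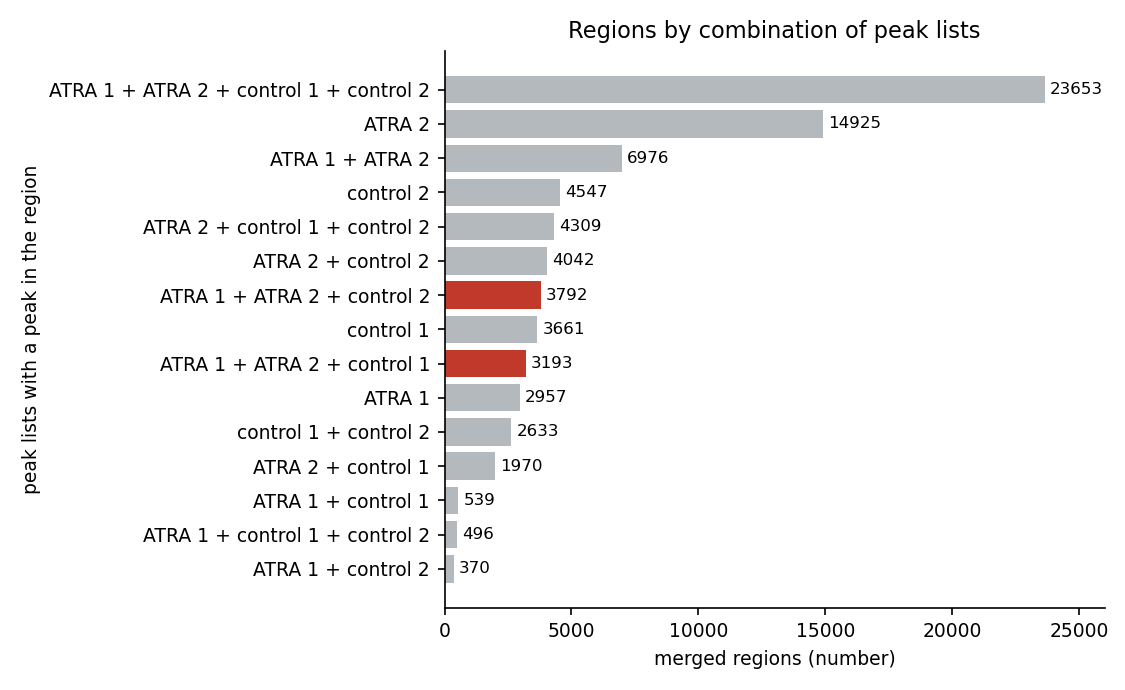
Number of merged regions (horizontal axis) for each combination of the 4 peak lists (vertical axis), with single-control regions in red. The 3792 and 3193 single-control regions lie between the 4309 regions missing only from ATRA replicate 1 and the 496 missing only from ATRA replicate 2.

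The number of single-control regions was first set beside other regions missing from exactly 1 list. Regions missing only from ATRA replicate 1 numbered 4309, those missing only from control replicate 1 numbered 3792, those missing only from control replicate 2 numbered 3193 and those missing only from ATRA replicate 2 numbered 496. ATRA replicate 2 had the longest list, and 89.7% of the mirror regions had their ATRA peak there. The counts for both control lists thus lay between those for the ATRA lists. With the same number of peaks taken from each list, the highest scoring ones, 5560 single-control regions were found, and with a score of at least 100 there were 4203. Of the single-control regions, 6697 (95.9%) held 1 peak of each list and 6981 held a control peak that directly overlapped an ATRA peak. Their median width was 462 bp.

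Single-control regions made up 16.7% (316 of 1896 on chromosome 8) to 24.0% (88 of 366 on chromosome 21) of the regions with both ATRA peaks on the autosomes. The share was 23.6% (95% Wilson interval 21.4 to 26.0) on chromosome 17 and 22.7% (20.5 to 25.1) on chromosome 19, both gene-dense, and 16.9% (15.6 to 18.2) on chromosome 2. The control replicate with the peak was replicate 1 for 61.4% of them on chromosome 19 and for 40.3% on chromosome 2.

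The rank of the peaks was described next. Because the regions were defined by the presence of peaks in these same lists, all values of rank are a description and carry no test. Single-control regions had a median percentile of 40.3 in ATRA replicate 1 and 54.6 in ATRA replicate 2. In the control list that held the peak, the median was 33.1 for control replicate 1 and 33.6 for control replicate 2. ATRA-only regions ranked lower in both ATRA lists, at 32.7 and 43.8, and common regions ranked higher in all 4 lists, at 68.9 and 79.2 in the ATRA lists and 68.2 and 70.5 in the control lists. Single-control regions thus lay between the other classes in both ATRA lists.

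**Figure D2:**
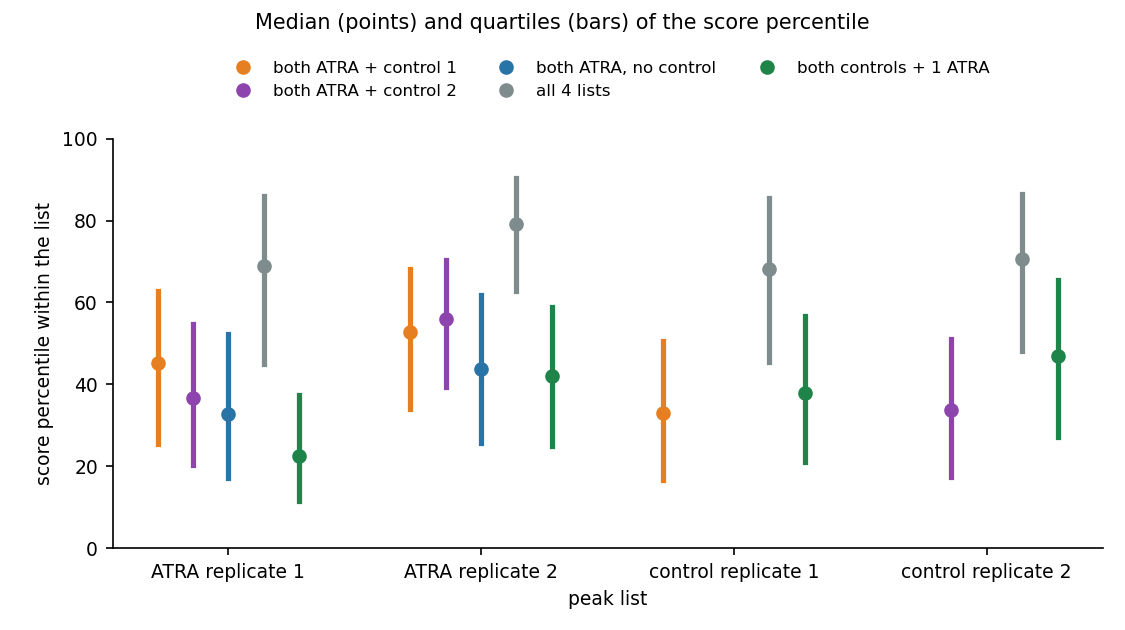
Score percentile within a list (vertical axis) by list (horizontal axis) for each class of regions, with points for medians and bars from the lower to the upper quartile over regions. Single-control regions (orange and purple) lie above ATRA-only regions (blue) and below common regions (grey) in both ATRA lists, and their control medians are 33.1 and 33.6.

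The scores at the threshold were as follows. The lists began at a score of 50, and the lowest control scores among single-control regions were 50.02 in control replicate 1 and 50.01 in control replicate 2. A control score below 60 was found at 639 (20.0%) of the regions of control replicate 1 and at 927 (24.4%) of those of control replicate 2, against 13.1% and 17.0% of all peaks in these lists. Below 100 lay 74.7% and 81.0%, against 50.3% and 55.9% of all peaks. The highest control scores were 332 and 277, and 2 and 3 regions ranked above percentile 90 of their control list. In the list that lacked the peak, the nearest peak was a median of 11745 bp away for control replicate 2 and 16406 bp for control replicate 1. In all, 35 (1.1%) and 18 (0.47%) of the regions had a peak of the missing list within 100 bp, the closest at 1 bp and 12 bp, so few were split from a neighbouring peak by the merging rule.

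At the median, the ATRA lists ranked a region higher than the control list that shared it. The mean of both ATRA percentiles exceeded the control percentile by a median of 11.9 points (quartiles -4.43 to 29.6) where the peak was in control replicate 1 and by 10.6 points (-8.09 to 28.9) where it was in control replicate 2. For common regions the same differences were 2.70 and 1.19 points. Both ATRA percentiles were above that of control replicate 1 at 1713 of 3193 regions (53.6%), where the share over all regions with these 3 peaks was 47.1%. Both were below it at 588 (18.4%), where that share was 22.0%. For control replicate 2, both ATRA percentiles were above at 1864 of 3792 regions (49.2%) against 44.0%, and both were below at 801 (21.1%) against 27.4%. At the remaining 892 and 1127 regions the control percentile lay between the ATRA percentiles. These counts come from the contrast that chose the regions, and nothing is read from them beyond the description.

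The size of this difference depended on the ATRA library and on the length of its list. ATRA replicate 1 alone exceeded the control by a median of 9.13 points for control replicate 1 and 2.78 points for control replicate 2, and ATRA replicate 2 alone by 15.7 and 18.7 points. Over all single-control regions the median difference was 11.3 points. It was 6.42 points when each list was reduced to the same number of peaks, 4.63 points with the rule applied without ATRA replicate 2, and 10.2 points without ATRA replicate 1. In mirror regions, the mean of the control percentiles exceeded the percentile of ATRA replicate 1 by a median of 21.6 points at 496 regions and lay below that of ATRA replicate 2 at 4309 regions (median -0.857).

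**Figure D3:**
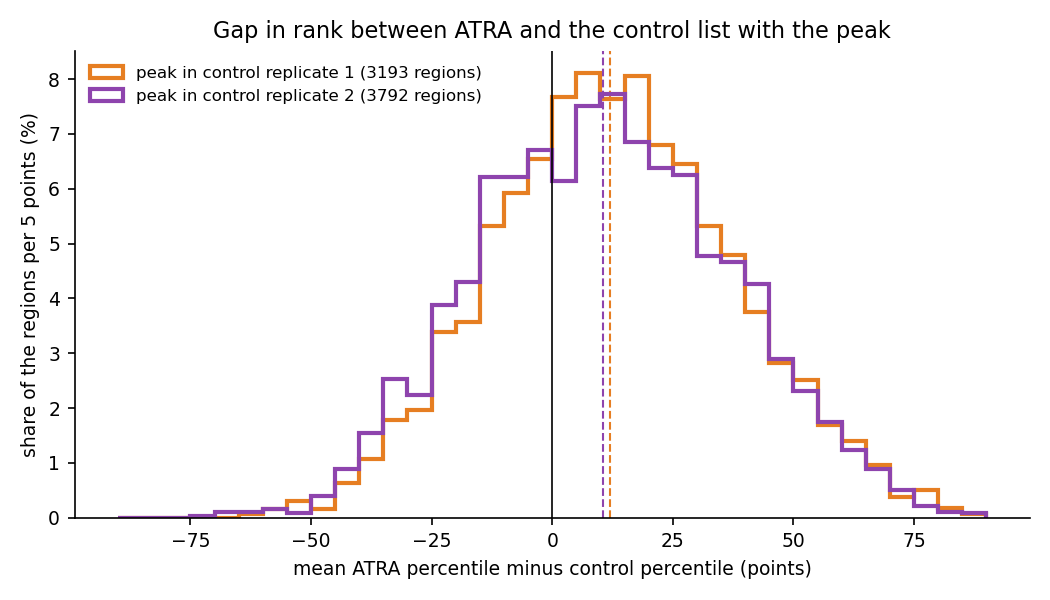
Share of single-control regions (vertical axis, percent per bin of 5 points) by the mean ATRA percentile minus the control percentile (horizontal axis, points), for regions with the peak in control replicate 1 (orange) and control replicate 2 (purple). The dashed medians are 11.9 and 10.6 points, and both distributions extend below 0.

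Ranks within single-control regions agreed less between libraries than in common regions. Across regions, which are not independent replicates, Spearman's rho between the ATRA lists was 0.45 in single-control regions, 0.42 in ATRA-only regions and 0.79 in common regions. Between ATRA replicate 1 and the control list it was 0.25 for control replicate 1 and 0.07 for control replicate 2, and between ATRA replicate 2 and the control list it was 0.18 for each. Such values also depend on the range of scores within a class.

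The largest differences in rank paired high ATRA ranks with control ranks near the bottom of the list. The 10 regions with the largest difference between the lower ATRA percentile and the control percentile had ATRA percentiles from 85.5 to 95.2 and control percentiles from 1.43 to 11.3. The first of these lay in an intron near HTT, the huntingtin gene (chr4:3046879-3047709), with percentiles of 92.1 and 93.2 in the ATRA lists and 5.10 in control replicate 1. The one nearest to LYST, which regulates the size of lysosomes and granules (chr1:236109037-236110695), ranked at 85.5 and 92.0 against 2.19 in control replicate 2. It lay between genes, 62842 bp from the LYST TSS, so its link to that gene is uncertain. A region 11700 bp from the TSS of PMAIP1, which encodes the apoptosis protein NOXA (chr18:57578481-57579414), ranked at 94.1 and 95.2 against 11.3 in control replicate 1 and held a PU.1 motif. The others were nearest to KCTD12, CBR4, ZNF784, MAP3K7, MAGI3, UST and C4BPA, and 1 of the 10, at ZNF784, lay within 1 kb of a TSS. Apart from ZNF784, these others lay from 88471 bp (CBR4) to 554412 bp (MAP3K7) from the nearest TSS.

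The opposite end was made of regions ranked low by ATRA replicate 1 alone. The 5 regions with the smallest difference had percentiles of 0.94 to 3.79 in ATRA replicate 1, 31.4 to 72.9 in ATRA replicate 2 and 76.4 to 82.6 in the control list. Their nearest genes were SYNJ2, ZNF804A, ADRA2C, DCTN1 and FGF10, at distances from 7996 bp (DCTN1) to 285439 bp (ZNF804A). The ATRA replicates thus lay far apart at these regions, with the control above both.

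The position of the regions relative to genes was not used to choose them and could be compared. A promoter was the stretch from 1 kb upstream to 100 bp downstream of a transcription start site (TSS) of a protein-coding gene. A promoter held the centre of 1034 single-control regions, a share of 14.8% (95% Wilson interval 14.0 to 15.7), where the share over all regions was 12.8%. It was 6.82% for ATRA-only regions, 28.5% for common regions and 4.04% for mirror regions. A difference between classes was called where its 95% Newcombe interval left out 0 and the regions of both control replicates differed in the same direction. Regions are not replicates, so these intervals cover counting error over regions, and an exact permutation test over 4 libraries cannot give a p-value below 0.333. The share was 13.7 points below that of common regions (difference -13.7, interval -14.7 to -12.6), which was called.

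The promoter share also differed between the regions of the control replicates. It was 25.4% (23.9 to 26.9) where control replicate 1 had the peak and 5.88% (5.18 to 6.68) where control replicate 2 had it, a difference of 19.5 points (17.8 to 21.2). The former lay 18.6 points above ATRA-only regions and the latter 0.94 points below them (difference -0.94), so the pooled difference of 7.98 points (6.96 to 9.0) was not called. Among regions with a mean ATRA percentile from 30 to 60, a range chosen after seeing the data, the pooled share was 4.06 points above that of common regions, with the regions of control replicate 1 14.4 points above and those of control replicate 2 4.06 points below (difference -4.06). With a score of at least 100, the promoter share was 45.2% for control replicate 1 and 9.23% for control replicate 2.

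Several properties of the libraries moved with this split. Over all regions with a peak in a list, the promoter share was 20.5% in control replicate 1 and 17.2% in control replicate 2. Promoters among the common regions had a median percentile of 85.2 in control replicate 1, 79.96 in control replicate 2, 87.1 in ATRA replicate 1 and 89.6 in ATRA replicate 2. The GC content of the 200 bp window at promoter regions had a median of 71.0% where control replicate 1 had the peak and 62.5% where control replicate 2 had it, against 65.5% for common promoter regions. Their part in the result was not tested. Away from promoters, median GC content was 46.0% for the regions of each control replicate.

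**Figure D4:**
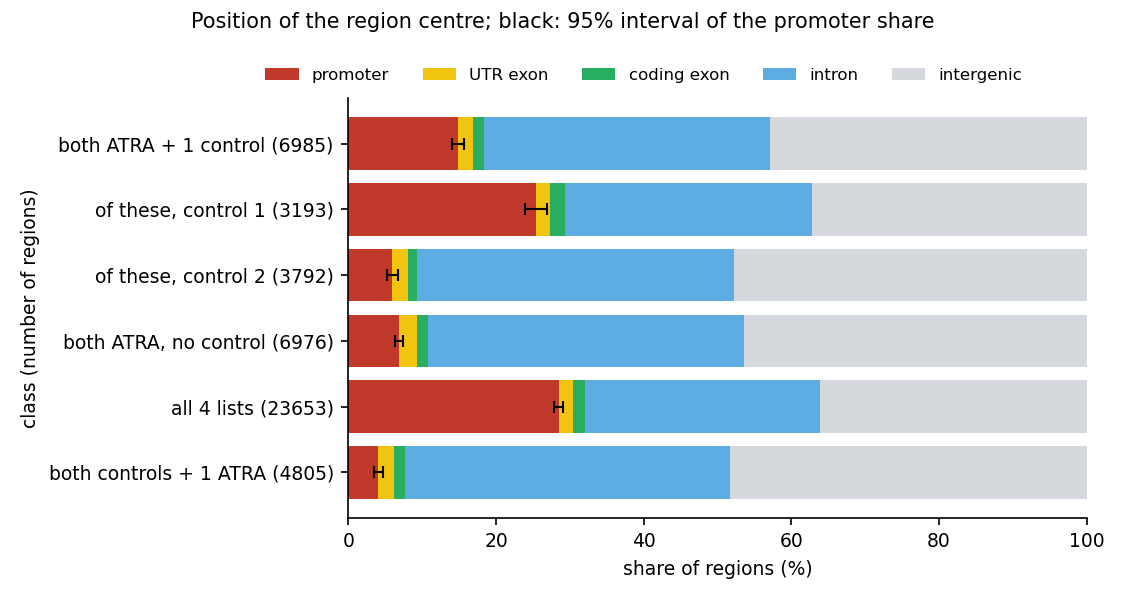
Share of regions (horizontal axis, percent) by position of the region centre, for each class (vertical axis, with the number of regions). Promoters (red, with the 95% Wilson interval in black) make up 25.4% of the single-control regions of control replicate 1 and 5.88% of those of control replicate 2.

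Of all single-control regions, 38.6% lay in introns and 43.0% between genes, near the 39.7% and 43.9% of all regions. Untranslated exon sequence held 2.06% and coding exons 1.55%, against 2.03% and 1.61% of all regions. The median distance to a TSS was 25056 bp, compared with 30355 bp for ATRA-only regions, 15078 bp for common regions and 29167 bp for all regions. It was 15147 bp for the regions of control replicate 1 and 33909 bp for those of control replicate 2. A total of 1590 single-control regions (22.8%) lay over 100 kb from any TSS, against 24.6% of all regions.

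Ranks at promoters differed between the regions of the control replicates. The 811 promoter regions of control replicate 1 had median percentiles of 58.1 and 52.7 in the ATRA lists and 46.5 in the control list, and the 223 of control replicate 2 had 45.8 and 55.8 against 28.4. Outside promoters the medians were 40.1 and 52.7 against 29.2 for control replicate 1, and 36.1 and 55.9 against 33.9 for control replicate 2. The median excess of the ATRA percentile was thus smaller at promoters than outside them for control replicate 1 (7.08 against 14.5 points) and larger for control replicate 2 (18.4 against 10.1 points). The 5 promoter regions with the highest mean ATRA percentile belonged to ZNF567, ZNF180, ZNF583 and ZNF582, zinc finger genes on chromosome 19, and to ESYT2. All 5 had their peak in control replicate 1. The ZNF567 promoter region (chr19:37177897-37178911) ranked at 96.6 and 94.9 in the ATRA lists and 58.6 in control replicate 1. That of ESYT2, an extended synaptotagmin that tethers membranes, ranked at 92.3, 90.9 and 90.1, so the absence of its peak from control replicate 2 set it apart and not its rank in control replicate 1.

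Motifs in the sequence were likewise not used to choose the regions. The presence of a peak depends on its score, however, and ranks varied with motif and library, as given below for CTCF. Motif shares are therefore not fully independent of the choice of regions. Short consensus sequences were searched on both strands in the 200 bp windows, and 3606 single-control regions (51.6%) held at least 1 of 12 motifs. The share over all regions is not given for this count, so nothing is read from it. The letters were AGATAA or TGATAA for GATA, GAGGAAGT for PU.1, AACCACA for RUNX, TTGCNNAA for CEBP, TGACTCA or TGAGTCA for AP-1, CCGGAAGT for ETS and CACGTG for E-box. CTCF, an IRF element and the retinoic acid receptor direct repeats DR5, DR2 and DR1 were searched by longer consensus sequences, and these repeats share 1 half-site. The motifs of PU.1 and ETS have a common core, although no stretch can match both. Each motif was compared with 3 classes, 36 comparisons in all. A match is a description of the sequence and not evidence of binding.

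Motifs of myeloid factors were less frequent in single-control than in ATRA-only regions and more frequent than in common regions. For PU.1, RUNX and CEBP the shares in single-control regions were near those over all regions. PU.1, the master regulator of myeloid cells, had a match in 641 single-control regions (9.18%, 95% Wilson interval 8.52 to 9.88), in 13.0% of ATRA-only, 6.59% of common and 7.49% of mirror regions, and in 8.95% of all regions. The difference from ATRA-only regions was -3.85 points (-4.90 to -2.81) and that from common regions was 2.59 points (1.86 to 3.35), both called. Outside promoters these differences were -3.39 points (-4.53 to -2.25) and 1.89 points (1.03 to 2.79), again called. The share was 8.71% for the regions of control replicate 1 and 9.57% for those of control replicate 2, with an interval of their difference of -2.21 to 0.50 points.

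RUNX motifs, bound by the core binding factors of blood development, were found in 8.92% of single-control, 12.1% of ATRA-only and 7.22% of common regions, with differences of -3.18 points (-4.20 to -2.16) and 1.70 points (0.97 to 2.47), and in 8.65% of all regions. The difference from common regions was no longer called with a score of at least 100, at 1.43 points, for a GC content from 40 to 50%, at 0.40 points, or for mean ATRA percentiles from 30 to 60, at 0.41 points, and that from ATRA-only regions was -1.17 points without ATRA replicate 1. CEBP motifs, bound by the C/EBP factors of granulocytes, were found in 12.1%, 15.4% and 10.3%, and in 12.3% of all regions. Their difference was -3.34 points (-4.48 to -2.20) from ATRA-only regions and 1.75 points (0.91 to 2.62) from common regions. The latter was not called outside promoters, at 0.66 points (-0.32 to 1.68), or without ATRA replicate 2, at 1.26 points. AP-1 motifs, the sites of FOS and JUN dimers, were found in 6.41%, 8.13% and 4.85%, with 5.76% of all regions. Their differences of -1.71 points (-2.58 to -0.85) and 1.57 points (0.95 to 2.22) were called. The former was -0.67 points without ATRA replicate 1, and the latter was not called there, at 0.41 points. Neither was called for a GC content from 40 to 50%, at -1.24 points (-2.63 to 0.15) and 0.91 points (-0.19 to 2.10). For IRF motifs, the sites of interferon regulatory factors, the shares were 3.75%, 4.44% and 2.62% with 3.41% of all regions, and the difference from common regions of 1.13 points (0.66 to 1.64) was called, also outside promoters, although not with a score of at least 100, at 0.37 points. The difference of IRF from ATRA-only regions was small, at -0.69 points (-1.35 to -0.03), and was not called outside promoters.

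The reversed consensus served as a control for base composition. For PU.1 it was found in 1.35% of single-control and 1.51% of ATRA-only regions, and none of the 12 reversed motifs met the rule for a call against ATRA-only regions. Against common regions 3 reversed motifs did, those of GATA, IRF and E-box. The reversed IRF consensus differed by 0.66 points (0.24 to 1.12), compared with 1.13 points for the motif itself.

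**Figure D5:**
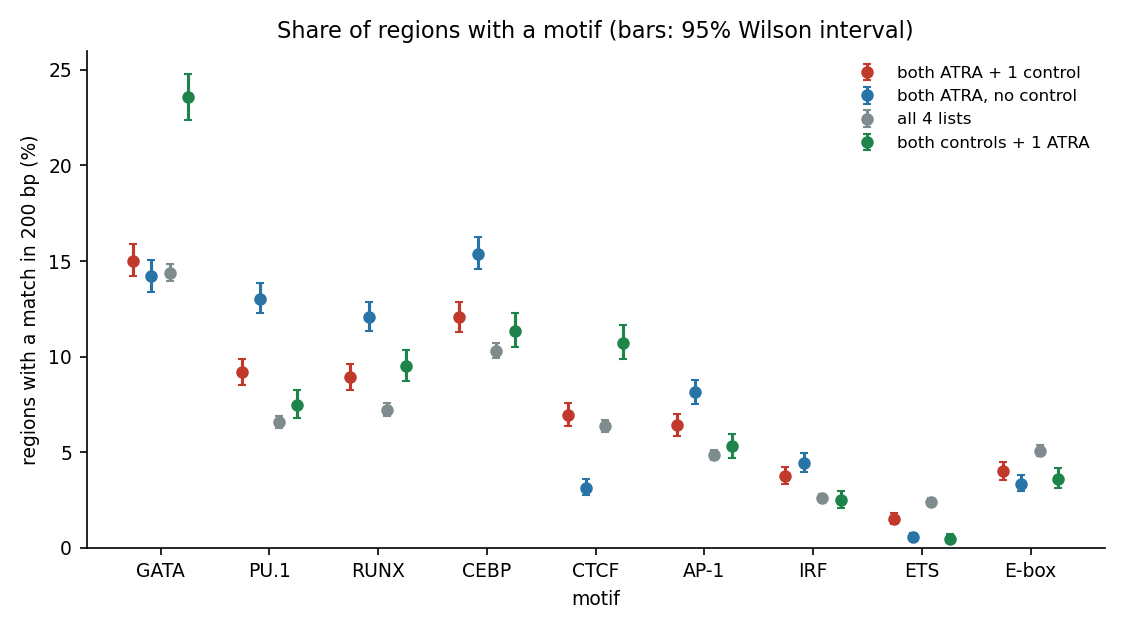
Share of regions with a motif match in the 200 bp window (vertical axis, percent) for 9 motifs (horizontal axis) and 4 classes, with 95% Wilson intervals as bars. For PU.1, RUNX, CEBP and AP-1 the single-control regions (red) lie between ATRA-only regions (blue) and common regions (grey).

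CTCF motifs were more frequent in single-control than in ATRA-only regions and differed between the control replicates. They were found in 6.96% of single-control regions, against 3.15% of ATRA-only, 6.36% of common, 10.7% of mirror and 5.84% of all regions. The difference of 3.80 points (3.08 to 4.53) from ATRA-only regions was called, with 0.76 points for the regions of control replicate 1 and 6.37 points for those of control replicate 2. That from common regions, 0.59 points (-0.06 to 1.29), was not called, with -2.45 points for control replicate 1 and 3.16 points for control replicate 2. That from mirror regions, -3.78 points (-4.85 to -2.73), was called. Among the regions of control replicate 1, 3.91% held the motif, and among those of control replicate 2, 9.52% did, a difference of -5.61 points (-6.76 to -4.45) that was -4.91 points (-6.21 to -3.57) outside promoters. The lists as a whole differed less, with CTCF motifs in 6.07% of the regions of control replicate 1 and 7.26% of those of control replicate 2. Common regions with a CTCF motif had a median percentile of 51.6 in control replicate 1, 65.8 in control replicate 2, 47.3 in ATRA replicate 1 and 70.8 in ATRA replicate 2, so the ranks of such sites moved with the library in both groups. Whether this accounts for the difference was not tested. Among single-control regions with a CTCF motif, the median excess of the mean ATRA percentile over that of control replicate 2 was -1.40 points at 361 regions, against 11.9 points at regions of that replicate without the motif. For control replicate 1 it was 12.5 points at 125 regions with the motif, against 11.9 points without it.

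GATA motifs were more frequent in mirror than in single-control regions. They were found in 15.0% of single-control, 14.2% of ATRA-only, 14.4% of common, 23.6% of mirror and 18.8% of all regions. The reversed consensus was found in 14.3%, 15.6%, 11.3%, 14.4% and 14.6% respectively. The GATA share of single-control regions was thus near that of the reversed consensus. Against common regions the reversed consensus differed by 2.91 points (2.01 to 3.84), compared with 0.64 points for the motif. The difference of -8.54 points (-10.01 to -7.08) from mirror regions was called and was -7.42 points (-8.98 to -5.86) outside promoters. Those from ATRA-only and common regions had intervals of -0.36 to 1.98 and -0.30 to 1.60 points and were not called. The latter depended on the regions compared. It was -1.68 points (-2.78 to -0.55) outside promoters, without a call, and was called at -4.79 points (-6.45 to -3.08) for a GC content from 40 to 50%, at -3.86 points for mean ATRA percentiles from 30 to 60 and in the opposite direction, at 1.46 points, without ATRA replicate 1. The difference from ATRA-only regions was called outside promoters, at 1.96 points (0.67 to 3.24), for a GC content from 40 to 50%, at 3.56 points, and without ATRA replicate 1, at 0.99 points, and it was -1.59 points without a call with a score of at least 100. PU.1 was 1.68 points (0.67 to 2.68) and IRF 1.25 points (0.61 to 1.87) more frequent than in mirror regions, both called.

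ETS motifs, common at housekeeping promoters, had a match in 1.5% of single-control, 0.57% of ATRA-only, 2.42% of common and 1.12% of all regions. Their shares moved with the promoter share, at 2.38% for control replicate 1 and 0.76% for control replicate 2, and outside promoters they were 0.46% and 0.45%. E-box motifs were found in 4.01%, 3.35%, 5.08% and 3.79% respectively, with 5.07% for control replicate 1 and 3.11% for control replicate 2.

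The direct repeats of retinoic acid receptors were rare. A DR5 match, 2 half-sites spaced by 5 bases, was found in 5 single-control regions (0.07%), in 0.39% of ATRA-only, 0.05% of common and 0.10% of all regions. DR2, with a spacing of 2 bases, was also found in 5 (0.07%), against 0.34% of ATRA-only and 0.11% of all regions. The differences from ATRA-only regions, -0.32 points (-0.50 to -0.16) for DR5 and -0.27 points (-0.44 to -0.12) for DR2, were called, and those from common regions were not, with intervals of -0.04 to 0.12 points for each. DR1 was found in 7 single-control regions (0.10%) and in 0.08% of all regions, with no call in any of the 3 comparisons.

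The excess in rank was also described by motif. Single-control regions with a RUNX motif had a median excess of the ATRA percentile over the control of 20.5 points in control replicate 1 and 16.1 points in control replicate 2, compared with 11.4 and 10.1 points for those without. With a PU.1 motif the excess was 15.6 and 16.4 points against 11.7 and 10.0 without. For AP-1 it was 14.4 and 15.3 points against 11.8 and 10.3. For CEBP it was 13.0 and 12.5 points against 11.9 and 10.3. For IRF it was 12.4 and 9.78 points against 11.9 and 10.6, so the replicates differed in direction. GATA motifs had 10.1 and 7.72 points against 12.1 and 11.2. In regions of control replicate 1, median ATRA percentiles were 46.95 with and 46.99 without RUNX, and 45.2 and 47.1 for PU.1. The control medians were 24.7 and 33.9 for RUNX, and 28.5 and 33.6 for PU.1. For control replicate 2, the ATRA medians were 48.8 and 45.0 for RUNX, and 47.0 and 45.1 for PU.1. The control medians there were 32.1 and 33.8, and 30.4 and 34.1. As the ranks chose the regions in part, these are descriptions. PU.1 and CEBP occurred together in 86 regions, PU.1 and RUNX in 49, CEBP and RUNX in 101 and all of these in 11. Shares over all regions are not given for these combinations, so nothing is read from the counts.

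The distance from single-control regions to other classes lay within the range of the classes compared. The nearest ATRA-only region was a median of 101192 bp away, compared with 90254 bp from one ATRA-only region to the next, 105730 bp from a common region and 112760 bp over all regions. An ATRA-only region lay within 10 kb of 622 (8.90%), against 7.97% of all regions, and a common region within 10 kb of 1734 (24.8%), against 22.98%. Another single-control region lay within 10 kb of 587 (8.40%), near the 8.18% of all regions with a single-control region that close.

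The genes near the regions were described from 10 lists of 128 genes. A gene was linked to a region within 50 kb of any of its TSS. Such a region could lie at the promoter of another gene or nearer to another gene. A single-control region was linked to 70 of the 128 list genes (54.7%), where the share over all 20136 protein-coding genes was 37.0%, and 13 list genes had one in a promoter, where that share was 5.62%. The list genes were also nearer to other classes. An ATRA-only region was linked to 53.1% of them, against 32.8% of all genes, and a common region to 82.8%, against 76.9%. The counts for single lists below stand beside these same shares over all genes. The 106 links came from 97 distinct regions, since neighbouring genes such as ITGAX and ITGAD share regions. These 97 had median percentiles of 44.9 and 58.3 in the ATRA lists and 29.5 in the control list, and both ATRA percentiles were above the control at 62 of them (63.9%), against 51.2% of all single-control regions. The difference was 18.996 points at the median, against 11.3 points over all single-control regions. These ranks come from the lists that chose the regions, and the gene lists were chosen with earlier results known. Nothing is read from the comparison beyond the description.

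Adhesion molecules had the highest count, with 12 of 13 genes linked to 20 regions, counting shared ones more than once, and 10 of 13 linked to an ATRA-only region. These genes let leukocytes attach to vessel walls and engulf coated particles. The promoter of ITGB2, the common β2 integrin chain (chr21:46340637-46341087), held a region at percentiles 26.8 and 64.9 in the ATRA lists against 8.01 in control replicate 1, with a PU.1 motif. A region upstream of ITGAX, the integrin chain CD11c (chr16:31363539-31364087), ranked at 55.9 and 80.7 against 18.5 in control replicate 2. At the promoter of ICAM3, a ligand of the integrin LFA-1, the values were 31.2 and 76.8 against 35.0 in control replicate 2, so the control lay inside the ATRA range. The 3 regions of CEACAM3, a granulocyte receptor for bacteria, included one at 58.4 and 57.4 against 3.66 in control replicate 2 and one at 11.8 and 22.5 against 51.6 in control replicate 1. Regions of 1 gene could thus rank in opposite orders. The single list gene of this group without a link was ITGAL.

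Granule protein genes were taken as an early and a late set. Of 7 azurophil granule genes, which are made by promyelocytes, 5 were linked to a single-control region and none to an ATRA-only region. Of 10 specific granule genes, which are made later in neutrophil maturation, 4 were linked to a single-control region and 7 to an ATRA-only region. Over all protein-coding genes these shares were 37.0% and 32.8%. The 40% of specific granule genes with a single-control region was thus near the share over all genes. With lists this short, nothing is read from the contrast between them. ELANE and PRTN3, serine proteases of azurophil granules, shared a region at the promoter of a neighbouring gene (chr19:893116-893669) that ranked at 64.3 and 52.4 in the ATRA lists against 1.26 in control replicate 2. LYZ, lysozyme, had 2 regions with ATRA percentiles of 15.3 to 58.6 and control percentiles of 5.11 and 12.4 in control replicate 1. The promoter of CAMP, the precursor of the antimicrobial peptide LL-37 (chr3:48264503-48264985), held a region at 43.6 and 56.1 against 17.6 in control replicate 2, with a PU.1 motif. A region upstream of OLFM4, a marker of a neutrophil subset, ranked at 66.7 and 94.5 against 41.6 in control replicate 2. A region near LTF, the iron-binding lactoferrin, ranked at 51.7 and 60.2 against 37.8 in control replicate 2, and one near BPI, which kills Gram-negative bacteria, at 38.1 and 42.0 against 28.5 in control replicate 1. MMP8, neutrophil collagenase, had 2 regions at 42.5 and 46.1 in ATRA replicate 1 and 65.3 and 65.5 in ATRA replicate 2, against 10.8 and 21.6 in control replicate 2. All 5 links of specific granule genes were to regions of control replicate 2.

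Genes of the NADPH oxidase, which makes the oxidative burst, had 3 of 6 members linked. CYBB had 4 regions, CYBA had 3 and NCF1 had 2, and 5 of the 6 genes were linked to an ATRA-only region. The promoter of CYBA, which encodes the small membrane subunit p22phox (chr16:88717337-88717785), held a region at 51.6 and 44.5 in the ATRA lists against 60.2 in control replicate 1. The control ranked above both ATRA libraries there. The region upstream of NCF1 (chr7:74179458-74180824) ranked at 84.5 and 96.3 against 21.3 in control replicate 2 and held an IRF motif. Reads of NCF1 and its near-identical copies cannot be assigned with certainty.

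Phagocyte receptors had 10 of 18 genes linked, against 12 linked to an ATRA-only region. The FCGR1A region shown above was among them. FCGR3B, a neutrophil IgG receptor with a near-identical neighbour, had 3 regions whose ATRA percentiles ran from 15.2 to 82.7 and whose control percentiles were 31.2, 2.04 and 65.2. CSF2RA, the α chain of the receptor for GM-CSF, lies in the pseudoautosomal part that chromosomes X and Y share, where the origin of a read cannot be told. Its promoter region ranked at 22.8 and 63.6 against 19.8 in control replicate 1. C3AR1, the receptor for complement fragment C3a, had 2 regions. One of them, at the promoter of FOXJ2, ranked at 42.1 and 25.3 against 28.3 in control replicate 1. The other, in C3AR1 itself, ranked at 22.9 and 0.34 against 0.03 in control replicate 2.

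Among transcriptional regulators, 11 of 20 genes were linked and 5 had a single-control region in a promoter, those being BCL6, RUNX1, IRF1, CEBPA and FOS. The promoter region of BCL6, a repressor of differentiation programmes (chr3:187463104-187463778), ranked at 69.1 and 78.7 in the ATRA lists against 31.1 in control replicate 1. That of CEBPA, which encodes the C/EBPα factor of granulocyte commitment (chr19:33793335-33793822), ranked at 52.6 and 60.3 against 20.6 in control replicate 1. At IRF1, an interferon-induced regulator, the control value of 73.2 lay above the ATRA values of 68.2 and 60.7, and at FOS, an AP-1 subunit, the control value of 41.8 lay above 13.2 and 35.2. RUNX1 had 4 regions, and its intronic region (chr21:36237735-36238596) ranked at 86.6 and 88.6 against 34.2 in control replicate 2. Its promoter regions ranked at 65.0 and 66.6 against 47.5 in control replicate 1, and at 44.9 and 37.9 against 40.4 in control replicate 2. SPI1, which encodes PU.1, had 3 regions, all of control replicate 1. One of them ranked at 54.8 and 17.3 against 0.32, and the other two ranked below the control, at 3.21 and 3.57 against 29.3 and at 7.24 and 46.6 against 59.8. The region linked to JUNB, another AP-1 subunit, lay at the promoter of RNASEH2A, 15061 bp from the JUNB TSS. It ranked at 76.7 and 76.1 against 50.3 in control replicate 1.

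Of 14 genes of the retinoid response, 8 were linked. RARA, the receptor for ATRA itself, had 3 regions, all of control replicate 1, and the ATRA lists ranked them at 2.00 and 43.0, 8.31 and 0.90, and 52.3 and 61.7 against control percentiles of 68.5, 31.2 and 53.3. The control was above both ATRA libraries at 2 of these. The region linked to CRABP2, which carries retinoic acid in the cell, lay 20090 bp from its TSS and nearest to ISG20L2. It ranked at 79.6 and 82.6 against 14.1 in control replicate 2. NRIP1, a retinoid-induced corepressor, had a promoter region at 80.1 and 63.0 against 62.8 in control replicate 1 (chr21:16437209-16437843) and a second region further upstream at 37.5 and 65.9 against 8.80. RARG, the γ receptor, had 2 regions at 61.6 and 43.1 against 35.3 and at 49.1 and 33.0 against 32.0, both nearest to ITGB7.

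Signalling genes of leukocytes had 7 of 12 linked. The promoter region of SYK, the kinase that couples Fc receptors and integrins to the cell (chr9:93563821-93564272), ranked at 51.1 and 58.4 against 6.59 in control replicate 1 and held PU.1 and CEBP motifs. A region in an intron of PIK3CG, the γ catalytic subunit of phosphoinositide 3-kinase, ranked at 75.4 and 87.8 against 36.2 in control replicate 2.

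The counts were lower for interferon and Toll-like receptor genes, with 6 of 16 linked, and for genes of immature myeloid cells, with 4 of 12. TLR2 and TLR4, receptors for bacterial products, had regions at 60.04 and 64.1 against 68.9 and at 63.6 and 81.0 against 63.0 in control replicate 2. ISG15, a ubiquitin-like interferon target, had 3 regions. One of them, nearest to AGRN, ranked at 62.1 and 51.4 against 13.7 in control replicate 1. At the others the control lay between the ATRA values. One ranked at 27.2 and 60.4 against 39.1 in control replicate 2. The other, at the promoter of AGRN, ranked at 12.3 and 43.7 against 42.4 in control replicate 1. The promoter of MYB, a regulator of progenitors (chr6:135501569-135502073), held a region at 11.9 and 35.3 against 8.82 in control replicate 1. Regions linked to KIT, FLT3 and CD33 ranked at 20.3 and 46.6 against 0.30 in control replicate 2, at 29.5 and 19.7 against 33.5 in control replicate 1 and at 45.9 and 65.1 against 29.5 in control replicate 1. The region linked to FLT3 lay at the promoter of PAN3, and that linked to CD33 was nearest to SIGLECL1. The share of 33.3% for the immature genes was near the 37.0% of all protein-coding genes, as was the 37.5% for the interferon and Toll-like receptor genes.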

How the data were processed

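Peaks were called per library by the authors, who per the labels and methods sequenced Tn5-treated nuclei, removed adapters, mapped the reads to hg19 by Bowtie and ran MACS2 with default settings; the processing notes also list cutadapt, Bowtie2 and MACS. A shift to the Tn5 cut site, duplicate removal and a blacklist are not given in the sources used here, so peak edges are approximate and repeats may hold peaks. The deposited score is the caller's own value, from 50 to 3100, on a scale that is not stated, and was used only as a percentile (midrank) within each list. Groups were taken from the sample titles.

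Peaks sharing at least 1 bp were merged into regions, and a region took the highest percentile of each list. Positions used 56143 TSS of protein-coding genes from GENCODE release 44 lifted to GRCh37, which shares chromosome names and lengths with the lists, and coordinates are 1-based. Software was Python 3.11.15, numpy 2.4.6, pandas 2.3.3, scipy 1.17.1, pysam 0.24.0, samtools 1.23.1 and matplotlib 3.10.9. The functions were tested on simulated data. Shares carry 95% Wilson intervals and differences 95% Newcombe intervals, which cover counting error over regions only. Alternatives covered merging, overlap, score threshold, list length, promoter definition, motif window, gene link and leaving out each ATRA library.

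The regions, gene lists and motifs were chosen with earlier results of these data known. Named were list genes with a single-control region in a promoter, up to 4 genes per list with the most linked regions, the 10 largest and 5 smallest rank differences, the 5 highest promoter regions, and for called motifs the highest ranking region near a list gene outside chromosome 8, of which some are printed. Some genes that meet this rule are not reported here.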

Additional observations from a re-analysis of the deposited data

How the results depend on the processing

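No paired analysis was possible because the result is a set of regions with no test over libraries. The rule cannot be applied without a control library. The number of single-control regions was 4203 with a score of at least 100 and 8091 to 13034 with an ATRA library left out. The median difference in percentile was 13.8 points with a score of at least 100, 6.42 points with lists of equal length and 4.63 to 10.2 points with an ATRA library left out. The promoter share against common regions differed by -9.90 points and was no longer called with a score of at least 100, and by 4.06 points for mean ATRA percentiles from 30 to 60, which like the range of GC content was chosen after seeing the data. The number of motifs called against common regions was 7, and was 2 with a score of at least 100 and 3 for a GC content from 40 to 50%; against mirror regions it was 6, and 3 with a score of at least 100. The median distance to an ATRA-only region was 122199 bp with a score of at least 100 and 149977 bp with lists of equal length, where fewer ATRA-only regions remained. Signs turned, with a call in at least 1 of the settings, for GATA against common regions at a GC content from 40 to 50% (-4.79 points) and at mean ATRA percentiles from 30 to 60 (-3.86 points), for CTCF against common regions in that range (-3.41 points), for IRF against ATRA-only regions in a 100 bp window (0.098 points), for CEBP against common regions at a GC content from 40 to 50% (-0.10 points) and at mean ATRA percentiles from 30 to 60 (-0.42 points), for ETS against common regions in that range (0.52 points), for E-box against common regions with a score of at least 100 (0.20 points) and in that range (0.11 points), and for ETS against mirror regions outside promoters (-0.0017 points) and at a GC content from 40 to 50% (-0.0016 points). Another 23 of 336 motif differences changed sign with a call in neither setting. Calls were lost without a change of sign for 34 motif differences, among them CEBP (-2.81 points) and DR2 (-0.07 points) against ATRA-only regions CEBP (1.51 points) and IRF (0.37 points) against common regions and PU.1 (0.92 points) and IRF (0.08 points) against mirror regions with a score of at least 100, AP-1 against ATRA-only (-1.24 points) and common regions (0.91 points) at a GC content from 40 to 50%, RUNX against common regions (0.41 points) and DR5 against ATRA-only regions (-0.07 points) at mean ATRA percentiles from 30 to 60. The causes were not tested. Mirror regions are not defined without an ATRA library. The differences of PU.1, RUNX and CTCF from ATRA-only regions, and of PU.1 from common regions, kept their direction and call in all alternatives run. For CTCF with a score of at least 100, the regions of control replicate 1 differed by 0.06 points and those of control replicate 2 by 7.32 points.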

Other observations

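Zinc finger genes of the ZNF series, 4 of which held the highest ranking promoter regions, were counted after their values were seen. They accounted for 39 of 1034 single-control promoter regions (3.77%, 95% Wilson interval 2.77 to 5.11), 25 of 476 ATRA-only promoter regions (5.25%, 3.58 to 7.64) and 211 of 6732 common promoter regions (3.13%, 2.74 to 3.58). Among mirror promoter regions they were 2 of 194 (1.03%, 0.28 to 3.68). The intervals of single-control and common regions overlapped. Of the 39, 27 had their control peak in control replicate 1 and 12 in control replicate 2, and 19 lay on chromosome 19.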
